A study of Homo sapiens with 7 samples.

Results

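The 862 regions described here carried a histone H1 peak in both wild-type libraries and none in either NuMA-depleted library. The cells were HCT116, an established line from a human colorectal carcinoma. They were selected on the presence and absence of peak calls, from the 4552 peaks of wild-type replicate 1 on chromosomes 1 to 22, X and Y. A region had to overlap a peak of wild-type replicate 2 by at least 1 bp, overlap no peak of depleted replicates 1 and 2, and lie outside every C-terminal NuMA peak that itself overlapped an N-terminal one. They are called lost regions below, which says that no peak was called in the depleted lists and not that H1 was gone. Both wild-type lists shared 2485 regions, and 1000 of them (40.2%) were in neither depleted list. Among the 2087 of these 2485 that lay outside the NuMA regions called with both antibodies, 862 (41.3%) were lost, and this is the share against which subsets are read. On the NuMA regions called with both antibodies, 138 of 398 (34.7%) were in neither depleted list and were left out by the rule. The calls in all 6 lists thus chose the members, and the number of lost regions is a description with no test. All 862 lost regions lay on distinct peaks of wild-type replicate 2.

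The study used CUT&Tag, in which an antibody tethers the Tn5 transposase so that it cuts and tags DNA near the bound protein, on 10000 cells per assay. Histone H1 was profiled in 2 NuMA-depleted libraries, titled AID, and in 2 wild-type libraries, titled NC. Wild-type cells also gave 1 NuMA library per antibody, of which one recognises the C terminus and the other the N terminus, and an immunoglobulin library of wild-type cells was not analysed here. The labels gave neither the method nor the extent of depletion, the clone, the time of treatment, nor whether replicates came from separate cultures, so a p-value between groups covers no more than how these libraries vary, and that variation may be technical.

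Histone H1 is the linker histone: it binds the nucleosome where DNA enters and leaves and the stretch of DNA between nucleosomes, and it helps nucleosome arrays fold into compact chromatin. It is present on most of the genome, so a peak marks a place where its tagged fragments rise above a broad surrounding level. NuMA is a large coiled-coil protein that organises spindle poles in mitosis and is part of the nuclear scaffold in interphase. The comparison asks what sets apart the wild-type H1 regions that had no counterpart once NuMA was depleted. Lost regions are set beside the 1485 retained regions, called in both wild-type lists and in at least 1 depleted list. Where NuMA distance matters they are set beside the 1225 retained regions that also lay outside NuMA regions called with both antibodies.

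The lost regions were the weaker and narrower of the shared wild-type H1 regions. The fold of a peak is the authors' enrichment of fragments at its summit over the local background, read only within its own list. In wild-type replicate 1 the median fold was 6.33 in lost regions (quartiles 5.48 and 7.30) and 6.98 in retained ones (5.91 and 8.18). In wild-type replicate 2 it was 6.30 in lost regions (5.41 and 7.36) and 6.84 in retained ones (5.82 and 8.12). The 2 distributions overlapped over most of their range, and the lost regions lacked the upper tail. The highest fold of a lost region was 11.8 in replicate 1 and 11.6 in replicate 2, against 24.9 and 26.1 among retained regions. A fold under 10 in both wild-type lists was found in 97.8% of lost regions (843 of 862) and 90.6% of retained ones (1345 of 1485). Ranked within all peaks of its list, the median lost region stood at the 48.6th percentile of fold in replicate 1 and the 53.8th in replicate 2, near the middle of each list, while the median retained region stood at the 65.4th and 66.5th. Lost regions were therefore ordinary wild-type peaks by fold, and retained regions were the stronger ones. Because loss and strength come from the same peak calling, these differences are given without a test.

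Width separated the groups further. Lost regions had a median width of 382 bp in wild-type replicate 1 and 363 bp in replicate 2, against 468 and 451 bp in retained regions. The shortest peak that the caller reported was 291 bp in replicate 1 and 273 bp in replicate 2, and the lower quartile of lost regions was 329 and 314 bp, close to that limit. Only 5 of the 862 lost regions exceeded 1 kb in either wild-type list, against 71 of the 1485 retained ones. Regions kept in only 1 depleted list lay between the lost regions and those kept in both. In wild-type replicate 1 the median fold was 6.33 in lost regions, 6.76 in the 891 regions kept in 1 depleted list and 7.55 in the 594 kept in both. The median widths in the same order were 382, 438 and 517.5 bp, and in replicate 2 they were 363, 426 and 503.5 bp.

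**Figure D1:**
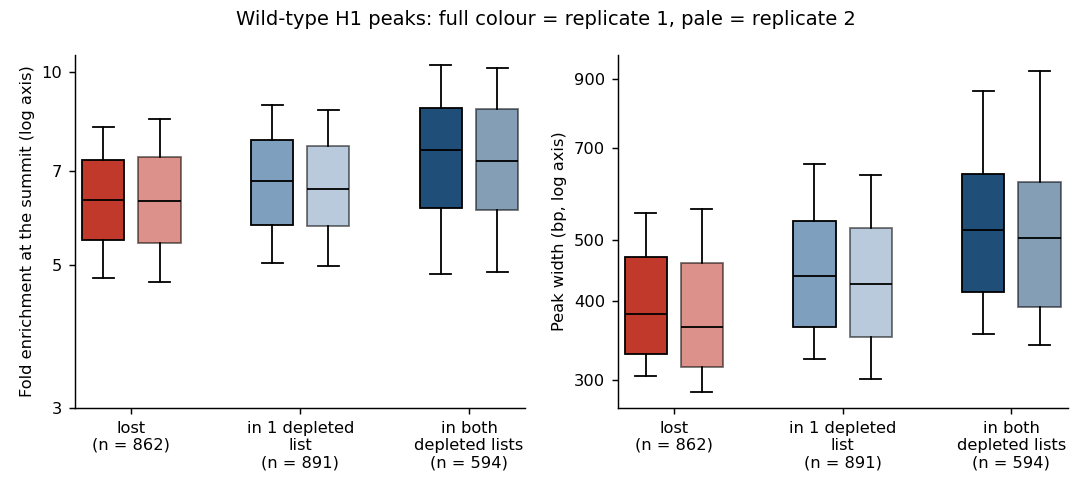
Fold enrichment (left, log axis) and width in bp (right, log axis) of H1 peaks in wild-type replicate 1 (full colour) and replicate 2 (pale), for regions lost, kept in 1 depleted list and kept in both. Boxes show the median and quartiles and whiskers the 10th and 90th percentiles over regions; in both replicates the medians step up from lost regions to those kept in both lists (width in replicate 1: 382, 438 and 517.5 bp).

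The lost share fell both with the number of fragments behind a summit and with width. For each peak, the fold and the p together were solved for its summit fragments and its local background. The median lost region had 19 fragments at its summit in each wild-type library, over a background of 2.00 in replicate 1 and 1.89 in replicate 2. Retained regions had a median of 23 and 22 fragments over 2.31 and 2.13. With the lower of the wild-type counts between 9 and 12 fragments, 58.7% of the regions outside NuMA sites were lost (128 of 218, 95% Wilson interval 52.1 to 65.0%). The share was 43.6% (213 of 488) at 17 to 20 fragments, 28.3% (70 of 247) at 26 to 35 and 9.54% (23 of 241, 6.44 to 13.9%) at 36 or more. By width in the narrower list, 60.2% of the regions under 350 bp were lost (515 of 855, 56.9 to 63.5%). The share was 35.6% (235 of 661) from 350 to under 450 bp, 24.8% (78 of 315) from 450 to under 550 bp, 19.4% (30 of 155) from 550 to under 700 bp and 4 of 101 at 700 bp or more (3.96%, 1.55 to 9.74%). These intervals cover counting error only, and those of some neighbouring fragment bins overlap, but the ends of the scale lie far apart. A high local background, over 10 fragments in either wild-type list, was rare in lost regions (16 of 862, 1.86%) and commoner in retained ones (156 of 1485, 10.5%). Retained regions without a recovered background, 14 in replicate 1 and 12 in replicate 2, were counted as high.

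**Figure D2:**
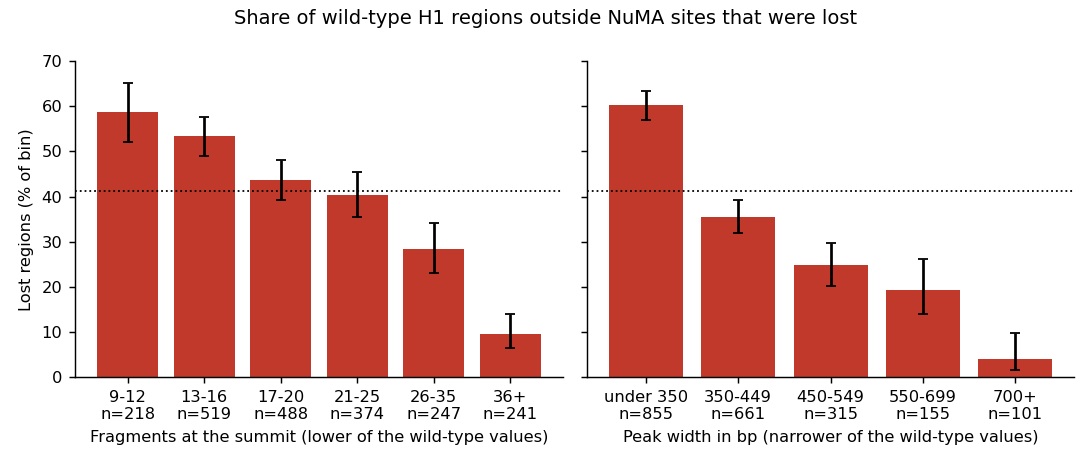
Share of wild-type H1 regions outside NuMA sites that were lost, in bins of summit fragments (left) and of width in bp (right), each by the lower of the wild-type values. Bars are percentages with 95% Wilson intervals (counting error only), the dotted line is the share over all 2087 regions (41.3%), and the share falls to 9.54% at 36 or more fragments and 3.96% at 700 bp or more.

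Depth moved with the groups. Estimated from the lowest background, the depleted H1 libraries held 5.73 and 5.72 M fragments and the wild-type ones 9.77 and 9.76 M, and the lists held 2616 and 1480 against 4552 and 5553 peaks. To set the wild-type regions at the level of the depleted lists, their fragments and background were scaled by the ratio of the lowest backgrounds, 0.646 from wild-type to depleted replicate 1 and 0.476 to depleted replicate 2, both from wild-type replicate 1. This ratio follows the depth and also the fragment length, for which the shortest peak stands (321 and 237 bp in depleted replicates 1 and 2 and 291 bp in wild-type replicate 1). The depth estimate itself divides the lowest background by the shortest peak. Whether the gap between the scales of the depleted libraries came from depth or from fragment length therefore cannot be told. The median of 19 fragments became 12.3 at the level of depleted replicate 1 and 9.05 at that of depleted replicate 2. So scaled, 90.1% of lost regions (777 of 862) would still reach the smallest −log10 p in the list of depleted replicate 1, which was 6.20, and 58.4% (503 of 862) the 6.51 of depleted replicate 2. For retained regions the same shares were 96.3% (1416 of 1470) and 80.2% (1179 of 1470), over those with a recovered count. From both wild-type libraries and at the level of both depleted ones, 377 lost regions (43.7%) reached the smallest −log10 p every time and 13 (1.51%) never did. The wild-type counts come from lists these regions had passed, so they lean high, and sampling around the scaled count was not modelled. The part of depth in the loss was not tested, and depth and depletion cannot be told apart in these 4 libraries. With each H1 list reduced to its 1480 peaks of highest fold, 27.2% of the shared wild-type regions outside NuMA sites were lost, 146 in number.

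Calls in the second depleted list depended strongly on the first. Of the 1064 regions outside NuMA sites that depleted replicate 1 did not hold, depleted replicate 2 held 19.0% (202, Wilson interval 16.7 to 21.5%). Of the 1023 that depleted replicate 1 did hold, it held 49.7% (508, 46.6 to 52.7%). Turned round, depleted replicate 1 held 37.4% (515 of 1377) of the regions that depleted replicate 2 lacked and 71.5% (508 of 710) of those it held. Absence from one depleted list thus went with absence from the other. Both lists' calls are among the values that chose the lost regions, so this is a description and no independent support. The difference was present in every quartile of wild-type fold. At the highest wild-type folds, depleted replicate 2 held 34.5% (69 of 200) of the regions absent from replicate 1 and 65.6% (229 of 349) of those present there, and in the lowest quartile 12.4% (38 of 307) and 42.1% (88 of 209). Leaving out depleted replicate 1 raised the number of lost regions to 1377, and leaving out depleted replicate 2 raised it to 1064. Without wild-type replicate 1 the number was 3286, and without wild-type replicate 2 it was 2300.

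The wild-type lists also differed from each other at such places. Of the 2300 peaks of wild-type replicate 1 that lay outside NuMA sites and in neither depleted list, wild-type replicate 2 held 37.5% (862, 35.5 to 39.5%). It held 70.8% of those in 1 depleted list (717 of 1012) and 90.7% of those in both (508 of 560). Starting from wild-type replicate 2, replicate 1 held 26.4% (867 of 3286), 67.0% (711 of 1061) and 93.6% (509 of 544). Places that both depleted lists lacked were therefore mostly places that the other wild-type list lacked as well, and the 862 lost regions were the minority with a second wild-type call. In the opposite direction, 35 of the 630 regions outside NuMA sites that both depleted lists held were in neither wild-type list (5.56%, 4.02 to 7.63%). The wild-type lists were longer (4552 and 5553 peaks against 2616 and 1480) and their libraries deeper. This share and the lost share are therefore not like for like.

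Within the wild-type pair, the summits of lost regions coincided as closely as those of retained ones. The summits of the overlapping wild-type peaks lay a median of 55 bp apart in lost regions (quartiles 16 and 136.5 bp) and 54 bp apart in retained regions (11 and 150 bp). Summits within 50 bp of each other were found in 48.0% of lost regions (414 of 862) and 47.3% of retained ones (703 of 1485). The share of the wider peak covered by the other list, taken as the smaller of both ratios, had a median of 76.6% in lost and 82.3% in retained regions.

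Few members sat near the edge of the overlap rule. The median distance to the nearest peak was 253 kb in depleted replicate 1 and 506 kb in depleted replicate 2. Only 8 lost regions had a depleted-list peak within 1 kb, and 38 within 10 kb. The smallest gaps were 471 bp at chromosome Y 13480953 to 13481578, 520 bp at chromosome 7 56441184 to 56441519 and 566 bp at chromosome 17 22245666 to 22246267. These regions had low folds (2.22 and 2.33, 2.62 and 2.90, 3.59 and 3.40 in wild-type replicates 1 and 2) on high counts of 64 to 175 fragments, unlike the typical member. Just inside retention, the smallest overlap with a depleted peak was 7 bp at chromosome 6 324957 to 325360, 9 bp at chromosome 14 36994515 to 36995002 and 24 bp at chromosome 17 74868284 to 74868705. Of the 1485 retained regions, 5 overlapped by under 50 bp, and the median overlap was 380 bp.

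The strongest lost regions had wild-type folds near 10 in both libraries and no peak within 100 kb in at least one depleted library. The region on chromosome 3 at 18336602 to 18337143 had 31 and 24 fragments at folds of 10.1 and 10.04, and its nearest depleted-list peak was 552 kb away. On chromosome 15, 85131378 to 85131688 had 23 fragments in each wild-type library at folds of 9.64 and 10.2. It lay on an N-terminal NuMA peak, and a peak of depleted replicate 1 lay 12.05 kb away. The region on chromosome 9 at 95640099 to 95640500 had 25 and 26 fragments at folds of 9.87 and 9.63. Both remaining regions of the 5 highest, chromosome 15 at 79866988 to 79867561 (33 and 25 fragments) and chromosome 6 at 151969249 to 151969621 (24 and 24), lay over 500 kb from any depleted-list peak. None of these 5 was chosen for a neighbour, and 4 of them overlapped no NuMA peak.

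The widest lost regions, by their width in wild-type replicate 1, mostly had that width in this library alone. The widest, chromosome 12 at 83079617 to 83080603, spanned 987 bp in wild-type replicate 1 and 295 bp in replicate 2, with folds of 6.19 and 6.26. Chromosome 14 at 61108765 to 61109718 spanned 954 and 334 bp, chromosome 3 at 143689945 to 143690891 spanned 947 and 283 bp, and chromosome 8 at 7622599 to 7623477 spanned 879 and 331 bp. Only chromosome 19 at 36798224 to 36799126 was wide in both, at 903 and 968 bp, and there the folds were low (2.91 and 2.69) on 40 and 60 fragments.

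Most lost regions touched no NuMA peak at all. Of the 862, 712 (82.6%) overlapped neither list. An N-terminal peak and no C-terminal peak was overlapped by 125 (14.5%, 12.3 to 17.01%), and a C-terminal peak and no N-terminal peak by 25 (2.90%). Among the 1225 retained regions outside both-antibody sites, 252 (20.6%, 18.4 to 22.9%) lay on an N-terminal peak and 45 (3.67%) on a C-terminal one. The N-terminal share was thus 6.07 percentage points lower in lost regions (95% counting interval −9.29 to −2.75), while the C-terminal difference was −0.77 points (−2.30 to 0.86). The retained regions were not alike in this. With regions on both-antibody sites counted, 38.3% of those kept in 1 depleted list (341 of 891) lay on an N-terminal peak. For those kept in both it was 28.6% (170 of 594). Both shares count regions on both-antibody sites, which the rule took out of the lost set. They therefore cannot be set beside the lost share. Outside those sites 717 regions were kept in 1 list and 508 in both, and their N-terminal shares were not computed. Within quartiles of wild-type fold the N-terminal difference was −5.65, −7.18, −7.35 and −0.25 points from the lowest to the highest quartile, with an interval of −7.46 to 8.19 in the highest. The N-terminal peaks at lost regions had a median fold of 4.06 and those at retained regions 3.75, both below the 4.998 of the whole N-terminal list. The H1 summit lay a median of 188 bp from the NuMA summit in the 125 lost regions and 206.5 bp in the 252 retained ones.

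Farther out, the lost regions lay nearer to NuMA regions called with both antibodies than the retained ones did. The median distance to the nearest was 308 kb for lost regions and 486 kb for retained regions outside NuMA sites. Within 100 kb of such a NuMA region lay 29.4% of lost (253 of 862) and 21.4% of retained regions (262 of 1225), a difference of 7.96 points (4.18 to 11.8). At 10 kb the shares were 7.66% and 4.90%, and at 1 kb 2.20% and 1.55%, where the interval of the difference included 0 (−0.51 to 1.99). The direction was the same in each quartile of wild-type fold, by 3.90 to 6.42 points, although the interval within each single quartile included 0. The median distances to either list alone were also shorter, at 198 kb against 287 kb to a C-terminal peak and 90.5 kb against 121 kb to an N-terminal peak, lost before retained. At short range the N-terminal peaks ran the other way, since 17.3% of lost and 22.7% of retained regions outside NuMA sites lay on or within 1 kb of one (−5.41 points, −8.81 to −1.91). The rule had removed the lost regions on NuMA sites, which is why the retained regions on such sites were left out of this comparison. The retained regions were not alike in this distance. With those on NuMA sites counted, 39.8% of the regions kept in 1 depleted list (355 of 891) lay within 100 kb. For those kept in both it was 28.1% (167 of 594). Both shares count regions that lay on NuMA sites, which the rule took out of the lost set. They therefore cannot be set beside the lost share. Outside NuMA sites 717 regions were kept in 1 list and 508 in both, and their split by distance was not computed.

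**Figure D3:**
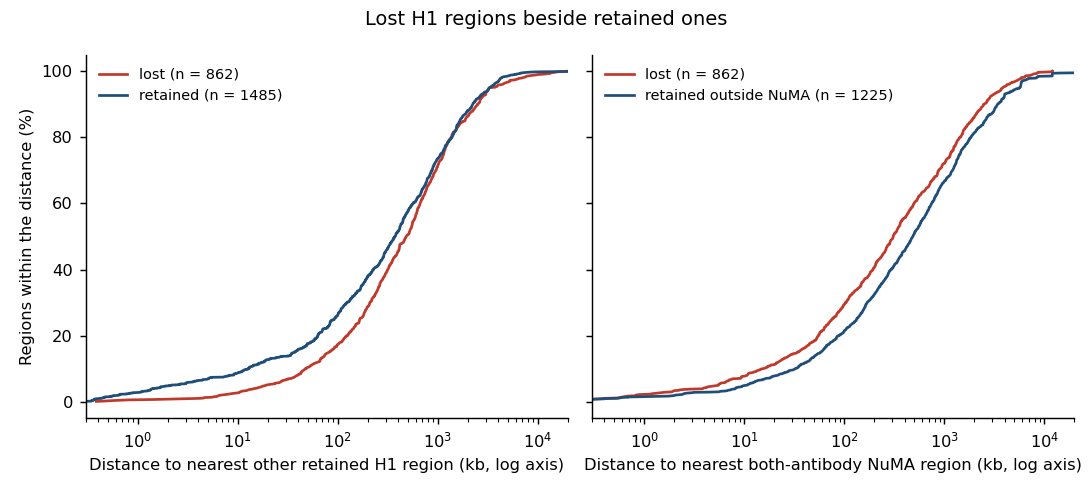
Cumulative share of regions (percent) by edge-to-edge distance in kb (log axis) to the nearest other retained H1 region (left) and to the nearest NuMA region called with both antibodies (right), for lost regions and, on the left, all retained regions or, on the right, those outside NuMA sites. The lost curve runs below the retained one at short distances on the left (17.3% against 26.3% within 100 kb) and above it on the right (29.4% against 21.4% within 100 kb).

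Lost regions lay near a retained region about as often as regions kept in 1 depleted list did, and less often than those kept in both. The median distance to the nearest retained region was 484 kb for lost regions, and 375 kb from a retained region to the nearest other. Within 10 kb of a retained region lay 2.67% of lost (23 of 862) and 8.75% of retained regions (130 of 1485), and within 100 kb 17.3% (149) and 26.3% (390), a difference of −8.98 points (−12.3 to −5.54). Of the regions kept in 1 depleted list, 2.81% (25 of 891) lay within 10 kb of another retained region and 18.9% (168, 16.4 to 21.6%) within 100 kb, close to the lost regions (14.9 to 19.95% within 100 kb). Of those kept in both, 17.7% (105 of 594) lay within 10 kb and 37.4% (222, 33.6 to 41.3%) within 100 kb, so the contrast came from these. The difference varied with local background. Regions whose background exceeded 10 fragments or was not recovered in either wild-type list were left out in a setting chosen after seeing the data. The difference at 100 kb was then −3.15 points. Retained regions occupied 962 windows of 1 Mb, and 20 of these windows held 5 or more, 155 of the 1485 regions in all, with 21 in the window from 86 to 87 Mb on chromosome 8 and 11 from 13 to 14 Mb on chromosome Y. For the smaller lost set, 1 window held 5 regions and none held more.

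The lost regions were scattered over 683 windows of 1 Mb. The median distance from a lost region to the next lost one was 825 kb, and 100 of the 862 (11.6%) had another within 100 kb, in 47 runs of at most 3. Among retained regions 390 of 1485 (26.3%) had another retained one within 100 kb, in 147 runs of up to 16, but the retained set is the larger, which shortens such distances. The direction of this contrast changed when wild-type replicate 1 was left out: the difference was −14.7 points with all libraries and 6.78 points without it. Set size changed too, since the lost set then grew to 3286 regions, 67.2% of those outside NuMA sites. Library and set size cannot be told apart there. The difference was −5.097 points without wild-type replicate 2 and −6.92 points without depleted replicate 1. Against the same 2485 regions the median distance to the nearest was 249.9 kb for lost and 201 kb for retained regions. Of the lost regions 42.1% (363 of 862) had a nearest shared region that was also in neither depleted list, and of the retained ones 38.1% (566 of 1485), a difference of 3.997 points (−0.11 to 8.12). Where that neighbour lay within 100 kb the shares were 40.3% (95 of 236) and 30.0% (154 of 514), 10.3 points apart (2.98 to 17.7). The 40.2% of all shared regions in neither depleted list counts regions at any distance, so it is no base for these shares within 100 kb.

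The window with most lost regions lay on chromosome 14 from 106 to 107 Mb, where 5 lost and 3 retained regions stood together. Its lost regions at 106004138, 106055828, 106234771, 106323837 and 106410916 had wild-type folds between 2.95 and 7.53. A window on chromosome 14 from 71 to 72 Mb held 4 lost regions and no retained one, starting at 71173960, 71276412, 71698238 and 71786714. Their folds were 6.19, 5.83, 4.51 and 7.40 in replicate 1 and 8.47, 7.12, 5.41 and 6.64 in replicate 2, and the nearest retained region was 528 kb or farther. An N-terminal NuMA peak lay on 2 of these 4. On chromosome 10 from 124 to 125 Mb, 4 lost regions accompanied 2 retained ones. Windows with at least 3 lost regions and no retained one numbered 15, and those with at least 3 retained regions and no lost one 46.

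Longer stretches without a retained region were few. The longest uninterrupted series of shared regions absent from both depleted lists held 9 regions, 8 of them lost regions and 1 on a NuMA site, over 12.8 Mb of chromosome 10 from 86425565 to 99206050. The next held 8, of which 7 were lost regions, over 19.4 Mb of chromosome 15 from 20644047 to 40075076. The longest such series of retained regions held 16. The lost regions farthest from any retained one were on chromosome 15 at 20644047 to 20644741 (20.5 Mb) and 23677264 to 23677569 (17.4 Mb). They were followed by chromosome 5 at 17598965 to 17599419 (15.5 Mb) and 16465970 to 16466360 (14.9 Mb) and chromosome 17 at 259859 to 260155 (13.9 Mb). Peaks of depleted replicate 1 did lie nearer to all 5, between 13.5 and 2332 kb away. Near the outermost peaks of the chromosomes, which need not lie at a chromosome end, the groups were alike. Within 1 Mb of such a peak lay 5.10% of lost and 5.45% of retained regions.

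Chromosome 15 lost most of its shared wild-type H1 regions. Outside NuMA sites 36 of its 55 regions were lost (65.5%, 52.3 to 76.6%), against 41.3% over all chromosomes. Chromosome 8 had a low share (58 of 183, 31.7%, 25.4 to 38.8%), and so did chromosome Y (2 of 17, 11.8%, 3.29 to 34.3%). Single windows weighed on both. From 86 to 87 Mb on chromosome 8 lay 21 of its 137 retained regions beside 4 lost ones. From 13 to 14 Mb on chromosome Y lay 11 of its 15 retained regions. The shares without these windows were not computed. On the other 21 of 24 chromosomes the interval included the share of the whole, but the shares ran from 27.3% on X to 57.1% on chromosome 22 and many intervals were wide. The largest numbers of lost regions were on chromosome 1 (83 of 195) and chromosome 2 (79 of 190). For its mapped length chromosome 14 held the most, 5.78 per 10 Mb between its outermost peaks, but its lost share (51 of 126, 40.5%) was close to that of all chromosomes.

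**Figure D4:**
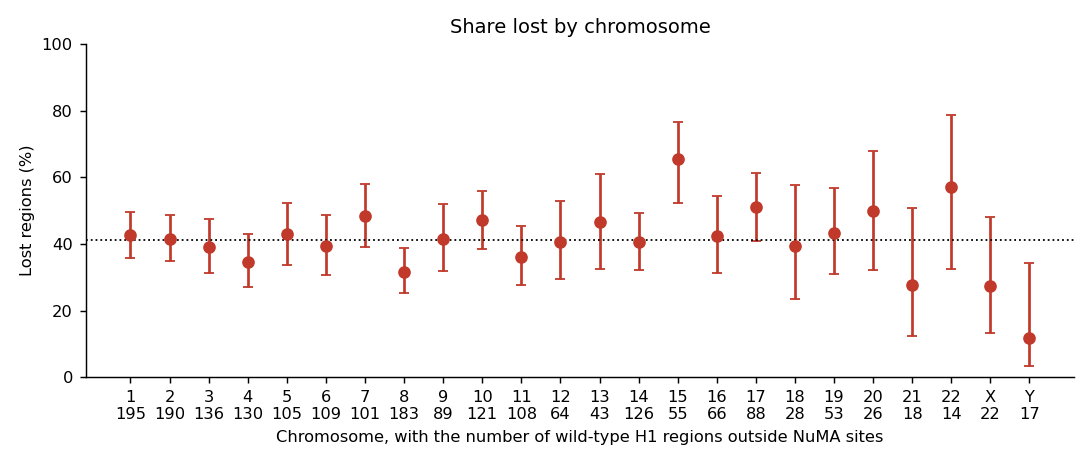
Share of wild-type H1 regions outside NuMA sites that were lost (percent, with 95% Wilson intervals for counting error), by chromosome, with the number of regions under each. The dotted line is the share over all chromosomes (41.3%); chromosome 15 lies above it at 65.5%, and chromosomes 8 and Y lie below it at 31.7% and 11.8%.

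On chromosome 15 the H1 peaks that overlapped no lost region made up 2.03% and 1.961% of the depleted lists and 2.41% and 2.73% of the wild-type lists, a difference of −0.58 points. Chromosome 15 was picked for its share of lost regions, which the same depleted lists had set, so this direction is a description with no test. The groups did not overlap on 10 of 24 chromosomes (41.7%), so chromosome 15 was not alone in this.

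As a share of their list, other H1 peaks near lost regions were not fewer in the depleted libraries up to 100 kb, although their number was lower in these shorter lists. Within 50 kb of a lost region lay 6.998% and 7.84% of the other peaks of the depleted lists (183 of 2615 and 116 of 1479) and 6.37% and 6.65% of those of the wild-type lists (235 of 3689 and 312 of 4691). The means were 7.42% ± 0.60 in depleted and 6.51% ± 0.20 in wild-type libraries (SD, n = 2 each), with a two-sided exact permutation p of 0.333, the smallest that 2 against 2 libraries allow (0.718 after Benjamini-Hochberg adjustment over 28 comparisons of libraries). At 10 kb the means were 1.95% ± 0.49 and 1.46% ± 0.14 and at 100 kb 12.5% ± 0.44 and 11.4% ± 0.09, depleted before wild-type, each with the same exact permutation p of 0.333 and n = 2 libraries each. At 500 kb the shares overlapped between the groups, at 36.5% and 37.2% against 37.1% and 38.1% (exact permutation p = 0.667, adjusted 0.933). No test with these libraries can pass a threshold of 0.05, and these shares are relative to lists of unequal length. The same lists had chosen the lost regions, so the permutation p-values give no independent support.

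**Figure D5:**
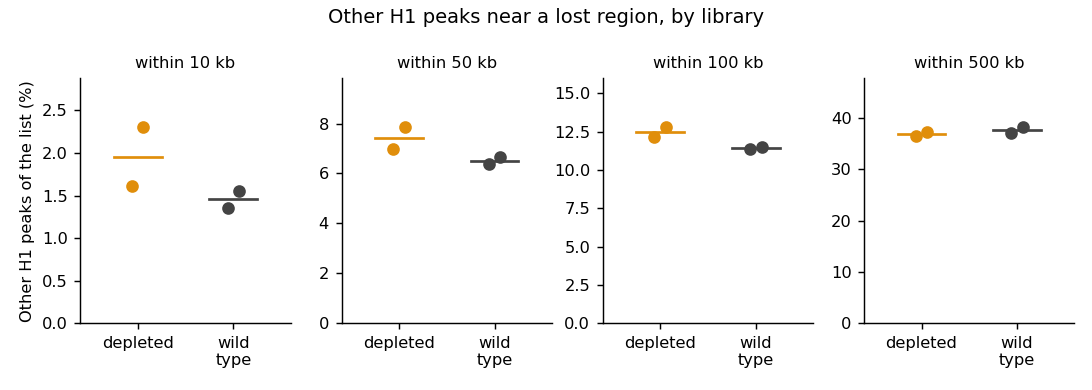
Share of each list's other H1 peaks (percent, those that overlap no lost region) within 10, 50, 100 and 500 kb of a lost region, 1 point per library and a line at the mean of the 2 libraries. Both depleted libraries lie above both wild-type libraries up to 100 kb (6.998% and 7.84% against 6.37% and 6.65% at 50 kb) and overlap with them at 500 kb.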

How the data were processed

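CUT&Tag peak lists of 6 libraries were used. The submitters' processing notes name MACS2, Picard, Bowtie2 and Trim Galore and the build hg19, without versions. Each deposited list was called on its own library, with a q limit of 0.001 in the peak names. Each peak came with the authors' fold, a ratio of summit fragments to background. Its −log10 q and −log10 p were also taken as deposited. The deposited score, a whole number made from the −log10 q, was not used.

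Scripts ran in Python 3.11.15. They used scipy 1.17.1 for tests, pandas 2.3.3 and numpy 2.4.6 for overlaps and matplotlib 3.10.9 for plots. Coordinates are 1-based on hg19. Overlap meant 1 bp, and retention was judged on the peak of wild-type replicate 1. Distances run from edge to edge. Fragments n and background b at a summit were solved from fold = (n + 1)/(b + 1) and p = the Poisson tail above n. They came out within 0.01 of a whole number for 98.9% to 100% of a list's peaks, and the solver was tested on simulated data. Depth is the lowest background over the shortest peak for an assumed genome of 2.7 Gb, with 2.93 M (C-terminal) and 4.86 M (N-terminal) in the NuMA libraries. Intervals are 95% Wilson intervals, or Newcombe's for differences, and cover counting error over regions, which are not replicates.

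Regions were named by rule: the 5 of highest lower wild-type fold, the 5 widest, the 5 farthest from a retained region, the 3 nearest the overlap limit on each side and the 3 windows of 1 Mb with most lost regions, with ties broken by fold. Chromosomes were named after their values were seen. The members, comparisons and alternatives were chosen with earlier results of these data known. Genes and sequences were not assigned, since the reference tables used another build than hg19.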

Additional observations from a re-analysis of the deposited data

How the results depend on the processing

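Of 91 recomputed values, 48 stayed close to the reported one, 42 moved farther and 1 changed sign. Close meant within its interval or, for fold and width, within its spread. A count had to stay within a fixed ratio of the reported one. The share of other peaks near lost regions had only to keep its direction. The number of lost regions fell to 146 and their share to 27.2% with lists of equal length. The share was 48.1% with summits within 200 bp, 39.0% with a wild-type −log10 q of at least 5 and 44.0% without high background. Leaving out 1 library gave counts from 1064 to 3286, shares from 51.0% to 67.2%, fold differences from −0.80 to −0.43 and width differences from −95.2 to −73.5 bp, with the reported differences of −0.59 and −87 bp being means over both wild-type lists. It gave differences within 100 kb of a retained region from −13.97 to −7.004 points and of a NuMA region from 4.94 to 9.86 points. The clustering difference of −14.7 points ran from −11.7 to 6.78 points, and it changed sign to 6.78 without wild-type replicate 1, where the lost set grew to 3286 regions. Against retained regions outside NuMA sites the fold difference was −0.68 and the width difference −89 bp. Width differences were −72.8 bp with summits within 200 bp, −74.5 bp with equal lists, and −77.8, −79.5 and −92.5 bp in fold quartiles 1 to 3. The difference near a retained region was −17.9 points in quartile 1 and −5.26 in quartile 3 and −3.15 without high background, and that near a NuMA region was 3.90 in quartile 1. Clustering differed by −8.34 points with equal lists, −25.01 and −9.65 in quartiles 1 and 3, −19.3 for runs within 500 kb, −8.12 without high background and −7.23 against all shared regions. With the larger wild-type count 97.8% of lost regions reached the level of depleted replicate 1. The call gap between depleted lists, −30.7 points, was −24.3 and −22.7 in quartiles 2 and 3. The causes were not tested. With replicates paired by number (replicate block), a setting chosen after seeing the data, the share of other peaks within 50 kb of lost regions was 0.63 and 1.19 points higher in depleted libraries, a mean of 0.91 as without pairing (exact sign-flip p = 0.5, the smallest that 2 pairs allow), and leaving out 1 library gave 0.487 to 1.33 points. The same lists had chosen the lost regions, so the sign-flip p gives no independent support. Summits of 9 to 12 fragments limit what a missing call can show.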
